A study of Arabidopsis thaliana with 8 samples.

Results

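The clock genes examined here were 35 Arabidopsis thaliana genes fixed by identifier. They included CCA1, LHY, genes of the REVEILLE (RVE) and pseudo-response regulator (PRR) families, the evening complex, GI and the ZTL family. The others were the LNK family, CHE, CO with COL1 and COL2, CDF factors, and the RNA-binding proteins GRP7 and GRP8. Of these 35 genes, 10 had a row in the authors' deposited table, a list of 2958 calls with an adjusted p below 0.05, and 25 had none. The study introduced DIV1, a transcription factor of the DIVARICATA group, into leaf cells by the TARGET assay, in which protoplasts take up a plasmid that encodes the factor and their transcripts are then measured. Both groups were protoplasts, that is leaf cells without walls, made from the rosettes of Col-0 plants at an age of 4 weeks, transfected with plasmid DNA and kept overnight. Poly(A) RNA was sequenced from 8 libraries, 4 titled div1 and 4 titled ev, an abbreviation that the labels do not expand. Neither the time of day at harvest nor the light during the overnight incubation is stated in the labels.

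The table holds 1 mean per gene over all libraries and no value per library, so the total count of each library is unknown and the spread between replicates enters only through the authors' standard errors. It does not name the numerator of its fold changes. DIV1 itself (AT5G58900) stood at 7.61 ± 0.88 (log2 fold change ± SE, here and below) in the authors' deposited table, and positive values are therefore read as higher in div1. A gene without a row either went untested or missed the threshold, and the table does not tell these cases apart. Levels are from whole protoplast preparations, in which fewer cells of a type and less RNA per cell cannot be told apart. Of 12 marker genes of leaf mesophyll, guard cells, epidermis and vasculature, 0 had a row, so neither the identity of the cells nor a shift between cell types could be read from the table.

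The plant clock is a set of transcription factors that repress and activate each other in a daily order. At dawn the related MYB factors LHY and CCA1 repress genes of the evening, through the day PRR proteins repress LHY and CCA1 in turn, and at night the evening complex of ELF3, ELF4 and LUX represses day genes such as PRR9. A second branch of dawn MYB factors, including RVE8, works with LNK co-activators to raise evening genes. LHY, CCA1 and the RVE proteins share with the DIVARICATA group a MYB domain of the SHAQKYF type.

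Clock transcripts moved in both directions. Among 35 members, 6 were higher in div1 (RVE2, RVE1, LUX, CDF1, ELF3 and GRP8), 4 were lower (LHY, PRR9, RVE8 and LNK2) and 25 had no row. The called share was 28.6%, against 16.4% of the 18010 genes tested, a total worked out from the authors' p-values and their ranks. Members without a row may include untested genes, which the 18010 leave out, so the denominators are unlike here and in the shares below. By direction, 17.1% of the members were higher, against 9.14% of all genes tested, and 11.4% were lower, against 7.28%. At an adjusted p under 0.01, 25.7% of the members were called, against 10.9% of all genes tested. Calls of at least 2-fold made up 5.71% of the members, namely RVE2 and RVE1, and 5.67% of all genes tested. No test was run over the members, which were chosen with earlier results of these data known. The called members had a median absolute log2 fold change of 0.65, and all called genes one of 0.78. These medians describe genes that passed the threshold and say nothing about those that did not.

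**Figure D1:**
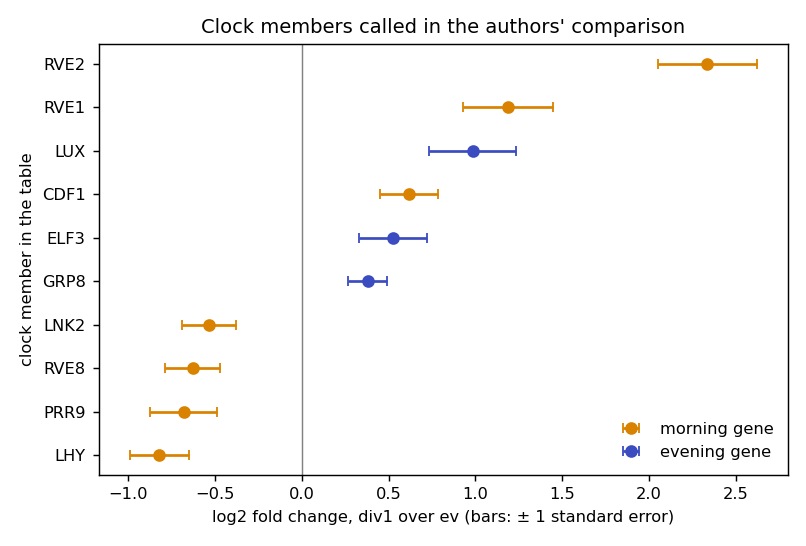
Log2 fold change of each called clock member, div1 over ev, from the authors' deposited table, with bars of ± 1 standard error, in orange for genes that peak in the morning and in blue for genes that peak towards evening. The 3 evening genes lie above 0 between 0.38 and 0.98, and the morning genes lie on both sides, from -0.82 for LHY to 2.34 for RVE2.

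The promoter stretches shown with the genes are the 250 bases before the annotated gene start, 5′ to 3′ on the gene's strand, in TAIR10.1 from RefSeq. Capitals mark matches, on either strand, to the evening element AAAATATCT, to the CCA1 site AAAAATCT or AACAATCT, to the G-box CACGTG, to the LUX site GATTCG or GATACG, to the I-box core GATAAG and to the MYBS site TATCCA. LHY, CCA1 and RVE proteins bind the evening element and the CCA1 site, bZIP and bHLH factors the G-box, and LUX the site named for it. The I-box core and TATCCA are recognised by DIVARICATA-type and related MYB factors. A match is a run of letters and does not show binding.

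Among the 10 called members the highest fold changes were those of a pair of dawn-phased MYB genes. RVE1 exceeded LUX, the next in order, by only 0.20 on the log2 scale, with a combined standard error of 0.36. RVE2 (AT5G37260), also called CIR1, is a MYB factor whose overexpression disturbs daily rhythms. It had an estimated mean normalized count of 177 in ev and 893 in div1, values obtained, here and for the other genes, by dividing the deposited mean according to the fold. This 5.05-fold rise had a log2 value of 2.34 ± 0.29 and an adjusted p of 4.1e-14 in the authors' deposited table. By size of fold it ranked 145 among the 1646 higher genes. RVE1 (AT5G17300), which links the clock to auxin synthesis and chlorophyll formation, had estimated means of 162 in ev and 369 in div1. In the authors' deposited table the change was 1.19 ± 0.26 with an adjusted p of 9.87e-05, or 2.28-fold. RVE2 exceeded RVE1 by 1.15 on the log2 scale, with a combined standard error of 0.39 that takes their errors as independent. RVE7 (EPR1), the third member of this branch among the genes examined, had no row.

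The promoters of this pair are shown because both carry 1 G-box, in RVE2 from 163 and in RVE1 from 111 bases before the gene start. They lie at chr5:14753089-14753338 and chr5:5692993-5693242, both on the minus strand. In RVE2 the capitals are, in order, a CCA1 site, the G-box and an I-box core on the opposite strand.
RVE2: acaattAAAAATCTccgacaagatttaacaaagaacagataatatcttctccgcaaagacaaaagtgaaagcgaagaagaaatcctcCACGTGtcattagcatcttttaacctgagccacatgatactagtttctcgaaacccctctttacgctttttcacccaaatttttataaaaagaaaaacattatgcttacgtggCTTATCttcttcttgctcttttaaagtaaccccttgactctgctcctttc
RVE1: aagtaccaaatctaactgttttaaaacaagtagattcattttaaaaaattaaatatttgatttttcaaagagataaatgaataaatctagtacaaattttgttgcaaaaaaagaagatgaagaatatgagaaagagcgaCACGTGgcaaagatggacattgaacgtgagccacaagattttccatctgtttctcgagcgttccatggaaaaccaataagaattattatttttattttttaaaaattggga

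LHY and RVE8, also dawn-phased MYB genes, went the other way. LHY (AT1G01060), a repressor at the centre of the morning loop, had estimated means of 2617 in ev and 1481 in div1. The authors' deposited table gave -0.82 ± 0.17 and an adjusted p of 2.75e-05, a 1.77-fold decrease. Its partner CCA1 (AT2G46830) had no row. RVE8 (AT3G09600), an activator of evening genes, had estimated means of 1059 in ev and 685 in div1. This 1.55-fold decrease stood at -0.63 ± 0.16 with an adjusted p of 8.81e-04 in the authors' deposited table. RVE4 and RVE6, its close relatives, had no row. The 8 members of LHY, CCA1 and RVE type held 2 higher and 2 lower calls and 4 genes without a row. Their called share of 50% stands beside 16.4% of all genes tested. Whether LHY differed from CCA1, or RVE8 from RVE4 and RVE6, was not tested, since the table gives no value for the partners.

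The LHY promoter, at chr1:37872-38121 on the minus strand, is shown for comparison with RVE2 and RVE1, since it also holds 1 G-box, from 80 bases before the gene start, while LHY was lower.
LHY: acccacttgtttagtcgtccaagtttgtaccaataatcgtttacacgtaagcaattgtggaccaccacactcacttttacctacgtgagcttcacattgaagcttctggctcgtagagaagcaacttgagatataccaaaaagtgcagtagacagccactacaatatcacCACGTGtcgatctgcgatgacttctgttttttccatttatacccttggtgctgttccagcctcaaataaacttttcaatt

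LNK2 and PRR9 completed the lower calls. LNK2 (AT3G54500), a co-activator that RVE8 recruits to evening genes, had estimated means of 5682 in ev and 3930 in div1. The decrease was 1.45-fold, or -0.53 ± 0.15 with an adjusted p of 0.00597 in the authors' deposited table. LNK1, LNK3 and LNK4 had no row, so 1 of 4 LNK genes was called (25%, beside 16.4% of all genes tested). PRR9 (AT2G46790), the earliest of the PRR repressors to peak in the day, had estimated means of 1038 in ev and 648 in div1. With -0.68 ± 0.19 and an adjusted p of 0.00484 in the authors' deposited table, it was 1.60-fold lower. Of the 5 PRR genes, 1 was lower, 0 were higher and 4 had no row, these being PRR7, PRR5, PRR3 and TOC1. The called share of 20% was near the 16.4% of all genes tested. RVE8 and LNK2, whose products act together, were both lower. The evening genes TOC1 and PRR5 were not listed, and the evening gene LUX was higher at 0.98 ± 0.25. Whether these calls are related was not tested.

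The PRR9 promoter, at chr2:19232357-19232606 on the plus strand, is shown because it holds 2 G-boxes and 1 LUX site, and PRR9 is a known target of the evening complex. The LUX site, on the opposite strand, starts 130 bases before the gene start.
PRR9: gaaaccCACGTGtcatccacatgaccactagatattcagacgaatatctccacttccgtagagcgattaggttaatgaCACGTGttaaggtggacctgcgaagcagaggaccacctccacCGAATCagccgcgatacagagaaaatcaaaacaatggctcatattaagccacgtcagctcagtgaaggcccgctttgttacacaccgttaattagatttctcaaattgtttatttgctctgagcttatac

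Of the 4 genes of the evening complex, LUX and ELF3 were called higher, both by less than 2-fold and both overlapping another gene. LUX (AT3G46640, PCL1), its DNA-binding GARP subunit, had estimated means of 1115 in ev and 2205 in div1. The authors' deposited table put this 1.98-fold rise at 0.98 ± 0.25 with an adjusted p of 0.00139. ELF3 (AT2G25930), the scaffold that joins LUX and ELF4, had estimated means of 457 in ev and 657 in div1. It rose 1.44-fold, at 0.52 ± 0.20 in the authors' deposited table, with an adjusted p of 0.0468 that lies close to the threshold of 0.05. ELF4 and BOA, the latter a close relative of LUX, had no row. The 2 higher calls make up 50% of the complex, beside 9.14% of all genes tested, and ELF3 was not called at an adjusted p under 0.01.

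GRP8 (AT4G39260, CCR1) is an RNA-binding protein whose transcript peaks in the evening and which, with GRP7, forms a slave oscillator under the clock. GRP8 had estimated means of 5922 in ev and 7710 in div1. At 0.38 ± 0.11 and an adjusted p of 0.00745 in the authors' deposited table, this 1.30-fold rise was the smallest absolute change among the called members. GRP7 had no row. GRP7 and GRP8 are close paralogs whose reads may be shared, so the split between them is uncertain.

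LUX and GRP8 are the called members whose promoters hold the evening element, and they are shown for that reason. The LUX stretch, at chr3:17182792-17183041 on the plus strand, has a G-box and then the evening element from 53 bases before the gene start. The GRP8 stretch, at chr4:18275217-18275466 on the minus strand, has the element on the opposite strand, from 12 bases before the gene start.
LUX: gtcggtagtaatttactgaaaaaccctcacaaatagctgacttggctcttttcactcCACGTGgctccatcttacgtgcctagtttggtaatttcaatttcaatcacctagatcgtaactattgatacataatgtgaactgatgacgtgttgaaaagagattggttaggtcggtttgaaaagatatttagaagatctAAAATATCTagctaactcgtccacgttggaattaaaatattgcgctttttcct
GRP8: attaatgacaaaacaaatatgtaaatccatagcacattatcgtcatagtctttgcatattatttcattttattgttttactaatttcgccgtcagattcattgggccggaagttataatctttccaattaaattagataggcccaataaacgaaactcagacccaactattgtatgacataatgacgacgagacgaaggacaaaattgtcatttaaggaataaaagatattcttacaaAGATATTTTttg

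GI, which stabilises ZTL and frees CO from repression, had no row, and neither did the blue-light F-box genes ZTL, FKF1 and LKP2. Among the CDF and CO genes of the members, the Dof factor gene CDF1 (AT5G62430), whose product represses CO and FT, was the 1 called. It had estimated means of 559 in ev and 857 in div1, a 1.53-fold rise at 0.62 ± 0.17 with an adjusted p of 0.00296 in the authors' deposited table. CDF2, CDF3 and CDF5 had no row, nor had CO, COL1, COL2 or CHE, a TCP factor that binds the CCA1 promoter. The called share was 25% of the 4 CDF genes and 0% of the 3 CO and COL genes, beside 16.4% of all genes tested. COL9, a further relative of CO that was higher, is given below with the other pathway genes.

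**Figure D2:**
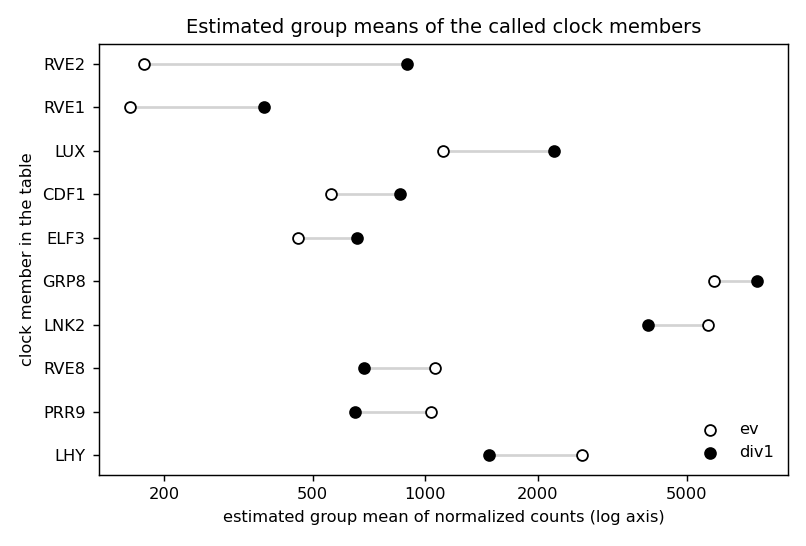
Estimated mean normalized count of each called clock member in ev (open circles) and div1 (filled circles), on a log axis, computed from the authors' deposited mean and fold change. As a ratio RVE2 spans the widest step, from 177 to 893, and GRP8 the narrowest, from 5922 to 7710.

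Morning and evening genes were compared by the direction of their calls. Of 20 genes whose transcripts peak at dawn or in the morning, 3 were higher, 4 lower and 13 without a row. Of 11 genes that peak from afternoon to dusk, 3 were higher, 0 lower and 8 without a row. The remaining 4 genes, CO, CHE, ZTL and LKP2, were put in neither class and none had a row. Among morning genes 15% were higher and 20% lower, and among evening genes 27.3% were higher, beside 9.14% and 7.28% of all genes tested. Evening genes that approached the threshold from below could not be counted, because the table holds no p for genes that were not called. Whether the classes differ in direction was not tested, and the classes were set with earlier results of these data known.

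In order of log2 fold change the called members ran RVE2, RVE1, LUX, CDF1, ELF3, GRP8, LNK2, RVE8, PRR9 and LHY. Neighbours in this order were separated by at most 1.21 combined standard errors, except RVE2 from RVE1 (2.97) and GRP8 from LNK2 (4.76), where the sign turns. The 4 lower genes lay between -0.82 and -0.53, and no neighbours among them differed beyond their errors. Per length, the mean normalized count over all libraries ran from 132 per kilobase of annotated exon for RVE1 to 6168 for GRP8, with LNK2 next highest at 1643 and LHY at 599. RVE2 stood at 546 per kilobase.

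**Figure D3:**
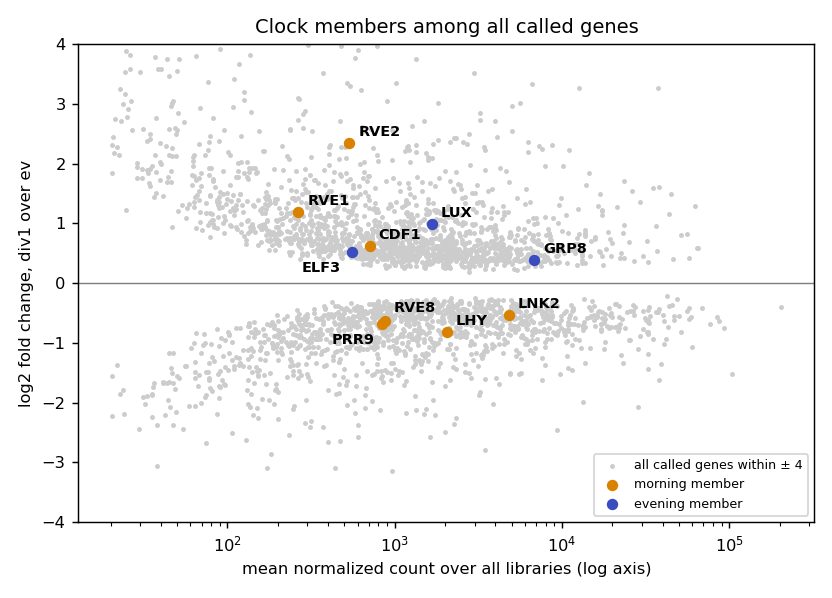
Log2 fold change (div1 over ev) against mean normalized count over all libraries on a log axis, for the called genes within ± 4 (grey) and the called clock members (orange for morning, blue for evening), from the authors' deposited table. RVE2 is the highest of the called members at 2.34, and their means run from 266 for RVE1 to 6816 for GRP8.

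The standard errors of the called members ran from 0.113 to 0.286, with a median of 0.181 beside 0.189 for all called genes. The smallest absolute test statistic in the authors' deposited table was 2.64. A gene with a standard error of 0.113 could thus be called from a log2 change of 0.30, and one with a standard error of 0.286 from 0.76. Changes as small as that of GRP8 would not have been called at the error of RVE2.

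Of 38 other genes of the clock pathway, comprising light receptors and their partners, further regulators and output genes, 7 were higher, 2 lower and 29 without a row. This called share of 23.7% compares with 16.4% of all genes tested. Among 10 light input genes, 3 were called, a share of 30% beside 16.4% of all genes tested. Both cryptochromes, which are blue-light receptors, were higher. CRY1 rose from an estimated mean of 450 to 1515, which was 1.75 ± 0.22 with an adjusted p of 7.14e-14 in the authors' deposited table. CRY2 rose from an estimated 771 to 1905, which the authors' deposited table gave as 1.30 ± 0.27 with an adjusted p of 4.07e-05. The red-light receptor gene PHYE was lower by the authors' deposited table, at -0.44 ± 0.15 with an adjusted p of 0.0216. PHYA, PHYB, PHYC, PHYD, COP1, SPA1 and DET1 had no row.

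Among 17 further regulators, 3 were higher and 1 lower, a called share of 23.5% beside 16.4% of all genes tested. COR28, a repressor of evening clock genes, rose from an estimated mean of 156 to 514, or 1.72 ± 0.24 with an adjusted p of 4.07e-11 in the authors' deposited table, and its relative COR27 had no row. TPL, a co-repressor that works with PRR proteins, and SKIP, a splicing factor that acts on PRR transcripts, were higher by the authors' deposited table, at 0.53 ± 0.14 and 0.43 ± 0.13. TCP20, which activates CCA1 together with LWD proteins, was lower at -0.37 ± 0.12 with an adjusted p of 0.0237 in the authors' deposited table. Neither TCP20 nor PHYE was called at an adjusted p under 0.01. RVE3 and RVE5, relatives of RVE8, had no row.

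Of 11 output genes 2 were higher and 0 lower, a called share of 18.2%, near the 16.4% of all genes tested. COL9, a B-box protein that delays flowering, rose from an estimated mean of 178 to 751, at 2.08 ± 0.19 and an adjusted p of 8.29e-25 in the authors' deposited table. PIF4, a bHLH factor that drives growth, rose by 1.12 ± 0.24 with an adjusted p of 6.86e-05 in the authors' deposited table. FT, SOC1, PIF3, PIF5 and the catalase genes CAT2 and CAT3 had no row.

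**Figure D4:**
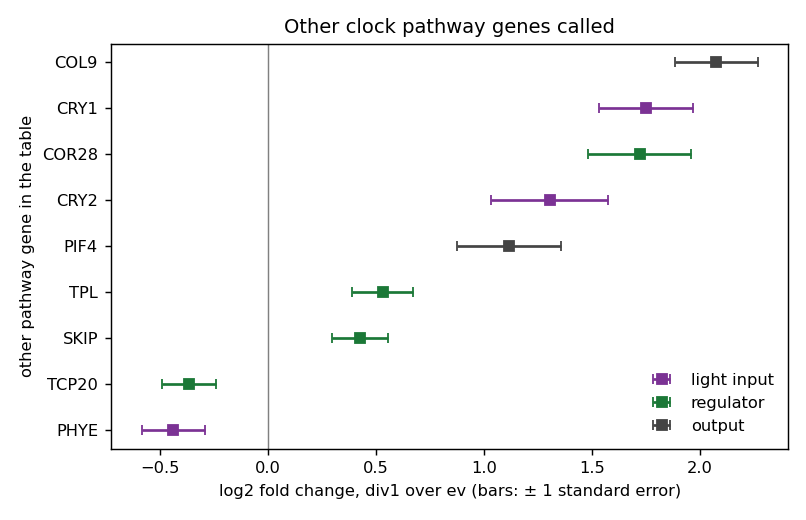
Log2 fold change of each called gene among the 38 other pathway genes, div1 over ev, from the authors' deposited table, with bars of ± 1 standard error and colours for light input, regulator and output genes. COL9, CRY1, COR28, CRY2 and PIF4 lie above 1, and TCP20 and PHYE lie below 0.

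Promoter letters differed among the members. The evening element is named for evening genes, so its share in the evening class is not an independent finding. In the 500 bases before the gene start, 7 of 11 evening members held the evening element (63.6%), against 2 of 20 morning members (10%) and 4.44% of 27444 protein-coding genes. The evening members with the element were PRR5, TOC1, LUX, BOA, GRP7, GRP8 and FKF1, of which LUX and GRP8 were called. Among all members the element was in 2 of the 10 called genes (20%) and 7 of the 25 without a row (28%). COL9, among the other pathway genes, held 2 copies.

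A G-box was found in 5 of the 10 called members (50%), in 5 of the 25 without a row (20%) and in 9.35% of protein-coding genes. By phase it was in 8 of 20 morning members (40%) and 2 of 11 evening members (18.2%), and 7 of the 10 called members are morning genes. The 38 other pathway genes held it in 21.1%, and the 9 called among them in 11.1%. The 5 called members with a G-box were RVE2, RVE1 and LUX, which were higher, and LHY and PRR9, which were lower. A CCA1 site was present in 4 called members, namely RVE2, ELF3, LHY and PRR9 (40%), in 4 of the 25 without a row (16%) and in 15.9% of protein-coding genes. LUX sites were found in 4 called members (40%), in 10 of the 25 without a row (also 40%) and in 22.6% of protein-coding genes. The I-box core was in 2 called members, RVE2 and GRP8 (20%), in 5 of the 25 without a row (20%) and in 22.4% of protein-coding genes. TATCCA was in 3 called members, RVE1, LNK2 and GRP8 (30%), in 5 of the 25 without a row (20%) and in 25.5% of protein-coding genes. Among all called protein-coding genes, TATCCA was in 31.5% of the higher and 22% of the lower. The I-box core was in 29.7% and 17.6% of these. The TCP site, searched as GGNCCC with G, A or T at N, was in 0 of the 10 called members, in 5 of the 25 without a row and in 10.6% of protein-coding genes. These shares are descriptions of a few genes, some of them depend on the window, and they were not tested.

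**Figure D5:**
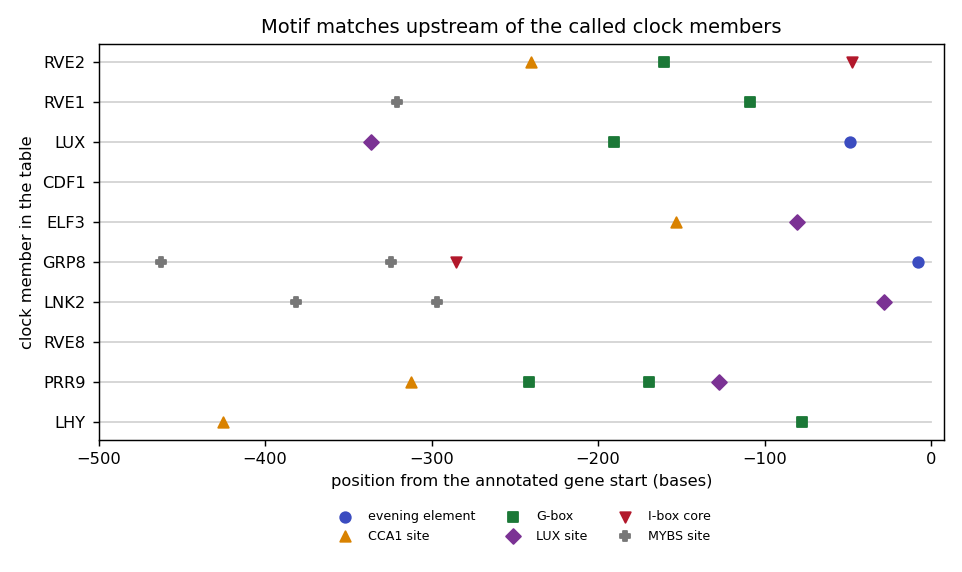
Motif matches on either strand in the 500 bases before the annotated start of each called clock member, with distance from the start on the x axis, genes in order of log2 fold change and marker shape for the motif (the MYBS site is the TATCCA match). G-boxes lie between 244 and 75 bases before the start in RVE2, RVE1, LUX, PRR9 and LHY, and RVE8 and CDF1 have no match to the 6 motifs drawn.

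Of the called members, 4 overlapped another annotated gene, all on the opposite strand, namely RVE1, ELF3, LUX and LNK2. The library kit named in the labels does not mark strand, so reads from the stretch that such a pair shares cannot be told apart. None of the overlapping partners of these 4 genes had a row of its own. Of the 20 protein-coding genes that flank the called members, 3 were called (15%, near the 16.4% of all genes tested), next to CDF1, GRP8 and LNK2. The gene beside CDF1, AT5G62440, was higher by 0.45 ± 0.13, and those beside GRP8 and LNK2, AT4G39270 and AT3G54510, were lower at -0.48 ± 0.10 and -0.73 ± 0.17, all from the authors' deposited table.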

How the data were processed

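The submitters' processing notes name TAIR10, HISAT2, featureCounts 2.0.1, fastp 0.21.0 and DESeq2, and their settings are not given in the sources that were used. Per the file headers, the authors deposited for each called gene a mean normalized count (a signal over all libraries), a log2 fold change and the standard error thereof, a test statistic (score), and a p-value with its adjusted p-value.

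The members were read by identifier and the authors' calls were used as deposited, so no test of samples was run. The number of genes tested was recovered from p, rank and adjusted p. The mean of each group was estimated by dividing the overall mean according to the fold change, with equal groups. The recovery and the motif search were tested on simulated data. Depth per library is unknown. The labels do not tie replicates to separate plants or transfections, and the p-values reflect only the spread of these 8 libraries, possibly technical.

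Every member and every other pathway gene with a row is named with its value. The members, lists and phase classes were chosen with earlier results of these data known. Coordinates, gene structure and upstream sequence came from TAIR10.1 (RefSeq), to which all 35 members matched. A planned comparison of protein sequences was not made here. Python 3.11.15, numpy 2.4.6, pandas 2.3.3 and matplotlib 3.10.9 were used.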

Additional observations from a re-analysis of the deposited data

How the results depend on the processing

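No paired analysis was possible because the authors' deposited table holds no value per library, and for the same reason no library could be left out and no other normalization, filter or test was run. At an adjusted p under 0.01, 5 members were higher and 4 lower, ELF3 being lost. At a mean of at least 100 the counts were those of the report. Restricting calls to 2-fold or more left 2 higher members, RVE2 and RVE1, and 0 lower, so 0 evening genes and 0 lower morning genes were called. Leaving out members that overlap another gene left 3 higher members, of which 1 was an evening gene, and 3 lower ones. As 14 of the 35 members overlap another gene, the number of members examined fell as well. Moving PRR7 and PRR9 out of the morning class left 3 lower morning genes, and leaving out CDF and COL genes left 2 higher ones. Without GRP7 and GRP8, 2 evening genes were higher, and without PRR5 and PRR3 the 3 higher evening genes were unaltered. The share of evening members with the evening element was 63.6% in 250 bases and 81.8% in 1000 bases, windows chosen after the data were seen. Among protein-coding genes these shares were 2.36% and 7.24%. In 250 bases a CCA1 site was in 20% of the called members, 16% of those without a row and 8.38% of protein-coding genes. In 1000 bases the same shares were 50%, 24% and 27.8%. For TATCCA they were 0%, 16% and 13.6% in 250 bases, and 40%, 40% and 43.8% in 1000 bases. For the G-box they were 50%, 20% and 6.49% in 250 bases, and 60%, 24% and 14.8% in 1000 bases.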
